A study of Mus musculus with 6 samples.

Results

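The Mu-class glutathione transferases of the mouse, Gstm1, Gstm2, Gstm3, Gstm4, Gstm5, Gstm6 and Gstm7, were followed in N2A neuroblastoma cells after knockdown of the long non-coding RNA Dali. The members were taken as every probe set whose annotated gene symbol is exactly one of these 7 names. This gave 8 probe sets for 7 genes, of 19938 genes and 21789 probe sets with 1 gene symbol among 35556 rows. Gstm3 is represented by 2 probe sets, 10362511 and 10501218. The family was chosen by the knockdown minus control differences of its probe sets in these same arrays, so those differences are given below as a description, with their errors and without p-values.

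N2A is a mouse neuroblastoma line. The control group of 3 samples was transfected with a non-targeting vector and the Dali knockdown group of 3 samples with a construct expressing a short hairpin RNA (shRNA) against Dali, both at 1.5 ug, and total RNA was taken 2.5 days later for Affymetrix Mouse Gene 1.0 ST arrays. The comparison asks which genes respond when Dali is depleted, with 1 hairpin construct set against 1 control vector in 1 cell line. No probe set was annotated to Dali, so its own level was not analysed here. The values are log2 RMA values (a robust multi-array average of the probes of each gene), so a difference of 1 is a 2-fold difference on the array. In bulk RNA, fewer cells expressing a gene and less of its RNA per cell cannot be told apart.

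Cytosolic glutathione transferases join the thiol of glutathione to reactive electrophiles such as epoxides and aldehydes formed by lipid peroxidation, which makes them easier to export. Mu-class enzymes work as dimers, and their genes lie in tandem in one cluster. The cluster arose by duplication, so its members are alike in sequence, and the liver is the tissue in which several of them are best known.

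Correlations between arrays over annotated probe sets were 0.990 to 0.997 and array medians 8.34 to 8.40. Of 18 markers of sympathetic neuroblasts, 16 had a probe set, with a mean level per array of 10.2 to 10.4. Among them were Stmn2, a neuronal microtubule regulator, at 13.4 to 13.5 and Hand2, a lineage transcription factor, at 12.1 to 12.3 on every array. The neurofilament genes Nefl (5.97 to 6.29) and Nefm (5.88 to 6.15) and Dcx (6.55 to 7.17), markers of more mature or migrating neurons, were low. The catecholamine enzyme genes varied between arrays of one group. Th (tyrosine hydroxylase) was at 9.55, 9.42 and 8.50 in control replicates 1, 2 and 3 and at 8.96, 9.36 and 8.40 in knockdown replicates 1, 2 and 3. Dbh was at 10.41, 9.89 and 11.42 in control and 10.31, 10.00 and 10.81 in knockdown, highest in replicate 3 of each group. Mean levels per array of the marker lists for other cells were 7.11 to 7.37 for glia, 7.66 to 7.87 for fibroblasts, 6.29 to 6.45 for macrophages and 6.66 to 6.76 for hepatocytes. The lower quartile of the mean level over annotated probe sets was 6.76, and all 8 Mu-class probe sets lay above it.

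The promoter sequences of 4 members are shown because the family is compared as a cluster of related genes. These 4 cover the largest knockdown difference (Gstm7) and a large difference with a smaller SD within groups than that of Gstm7 (Gstm2). They also cover the gene whose probe sets disagree (Gstm3) and the member oriented the opposite way in the gene order (Gstm5). The sequences are from RefSeq, build GRCm38.p6, written 5′ to 3′ on the strand of the gene, and stop at the outer boundary of the gene so that no transcribed base is shown. Gstm7 covers chr3:107931878-107932067 on the minus strand, Gstm3 chr3:107969175-107969424 on the minus strand, Gstm2 chr3:107986421-107986670 on the minus strand and Gstm5 chr3:107895604-107895853 on the plus strand. Capitals mark matches on either strand to the motif letters given in the next paragraph.
Gstm7: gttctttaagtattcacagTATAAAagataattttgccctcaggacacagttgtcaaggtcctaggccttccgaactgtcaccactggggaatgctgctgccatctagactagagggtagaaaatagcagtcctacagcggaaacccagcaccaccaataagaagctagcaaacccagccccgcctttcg
Gstm3: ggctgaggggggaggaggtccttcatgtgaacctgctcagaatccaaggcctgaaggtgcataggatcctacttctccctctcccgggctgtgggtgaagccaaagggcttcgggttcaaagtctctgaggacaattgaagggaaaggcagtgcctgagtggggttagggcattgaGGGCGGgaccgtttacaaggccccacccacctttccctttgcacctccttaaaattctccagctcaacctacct
Gstm2: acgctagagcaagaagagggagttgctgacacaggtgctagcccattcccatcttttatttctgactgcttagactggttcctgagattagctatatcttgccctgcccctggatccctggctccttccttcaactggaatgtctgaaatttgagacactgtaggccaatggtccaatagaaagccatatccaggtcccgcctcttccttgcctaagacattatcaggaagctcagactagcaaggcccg
Gstm5: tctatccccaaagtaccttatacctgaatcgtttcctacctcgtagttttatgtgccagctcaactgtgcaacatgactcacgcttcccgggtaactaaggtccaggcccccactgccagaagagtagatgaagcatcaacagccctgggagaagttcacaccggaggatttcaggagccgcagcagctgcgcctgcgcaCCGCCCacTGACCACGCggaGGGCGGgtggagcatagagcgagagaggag

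All 7 genes were found in the RefSeq promoter table, with 12 windows of 300 bases (250 before and 50 after an annotated start) among 32851 windows of 27025 genes. A total of 5 motifs were searched on both strands, chosen after the expression values were known. The core of the antioxidant response element (TGACNNNGC), the site bound by the oxidative stress factor NRF2, was found in 2 of the 12 windows and in 12.4% of all windows. One match lay 42 bases before the start of Gstm5, between a pair of GC boxes in the printed stretch, and the other 129 bases before the inner start of Gstm7. The octamer of POU factors (ATGCAAAT) and the E-box (CACGTG) had matches in 0 of the 12 windows, against 1.74% and 7.15% of all windows. The TATA box letters (TATAAA) were found in 3 windows (13.6% of all) and the GC box (GGGCGG) in 6 (35.7% of all). A match to the TATA letters lay 30 bases before a start of Gstm1, whereas the match printed for Gstm7 lies 231 bases before a start. The Gstm5 window held 18 CpG dinucleotides and the Gstm2 window 3, where the median over all windows was 7. These matches are descriptions of the letters, not binding sites.

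The mean of 7 of the 8 Mu-class probe sets was lower in Dali knockdown cells, by 0.15 to 0.79 on the log2 scale. The exception was the Gstm3 probe set 10501218, which was also the only one that the variance filter removed. In 6 of the 7 the control arrays alone spanned a wider range than the difference between the group means, with replicate 2 highest in both groups. Control and knockdown arrays overlapped for all 8 probe sets, where in 8.86% of the 11705 probe sets kept by the filter all knockdown arrays lay below all control arrays. Without a term for the replicate number, limma called 0 of the 7 tested probe sets at an adjusted p under 0.1 and a fold of at least 1.3, where it called 1.14% of all 11705 tested (0.769% lower and 0.367% higher). At an unadjusted p under 0.05 the count was 2 of 7 (12.7% of all tested). With the replicate number as a block, 5 of the 7 were called lower (4.89% of all tested were called lower, 2.77% higher and 7.65% in either direction), and 6 of 7 had an unadjusted p under 0.05 (30.7% of all tested). These counts describe genes that were proposed from the same contrast. The 5 called with the block include Gstm3 10362511, and which gene that probe set measures is uncertain.

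**Figure D1:**
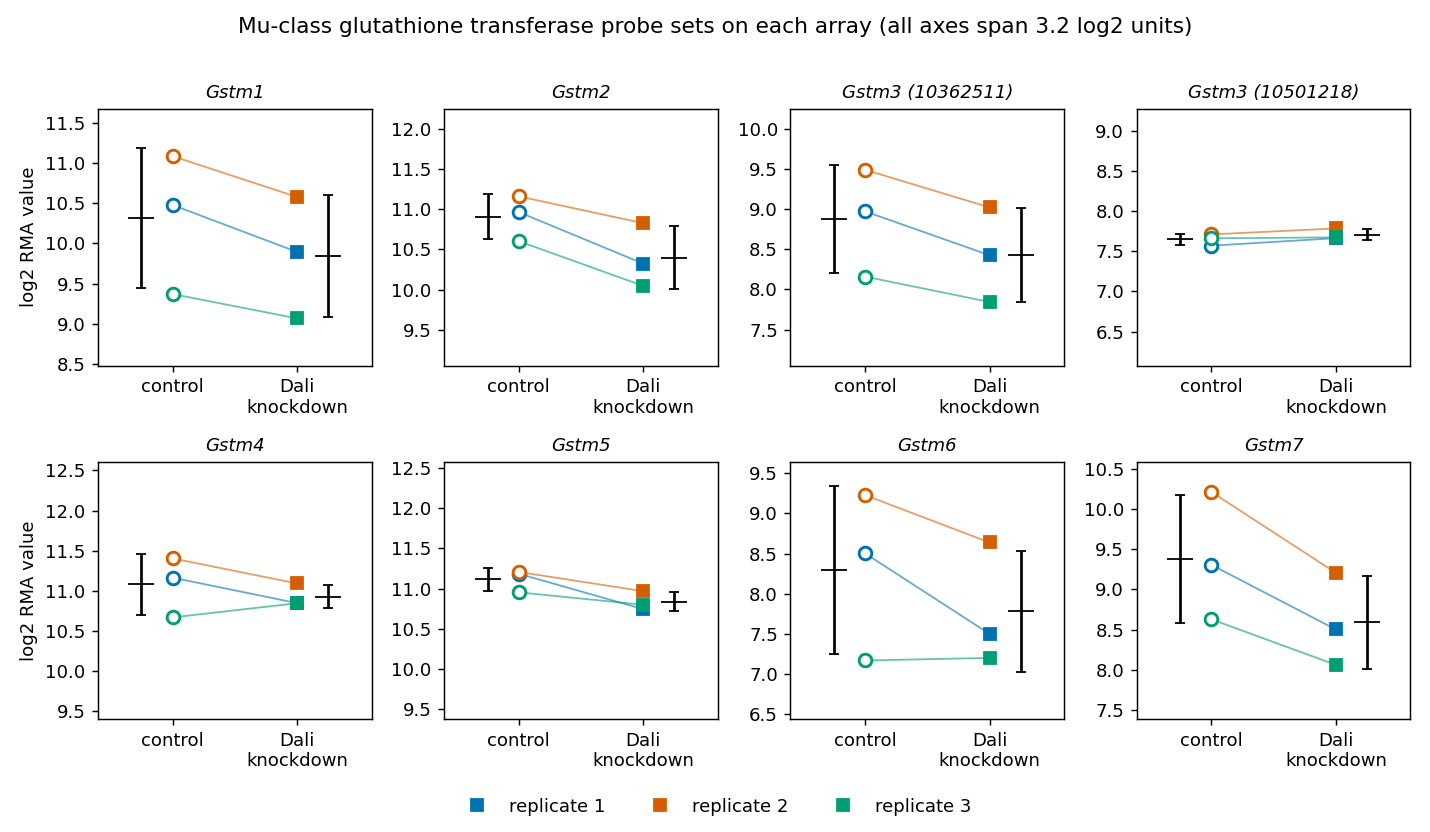
Log2 RMA value (vertical axis) of the 8 Mu-class probe sets on each array, with control as open circles, Dali knockdown as filled squares, colours and lines joining arrays of the same replicate number, and black bars for the mean ± SD of each group (n = 3). In 7 panels replicate 2 (orange) is the highest of each group and the lines slope down for at least 2 of the 3 numbers, while Gstm3 10501218 is nearly flat between 7.57 and 7.79.

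Gstm7 had the largest difference of the family. It was at 9.31, 10.21 and 8.63 in control replicates 1, 2 and 3 and at 8.50, 9.21 and 8.06 in the knockdown replicates of the same numbers. Each knockdown array was below the control array with its number, yet knockdown replicate 2 was higher than control replicate 3. The mean went from 9.38 ± 0.80 to 8.59 ± 0.58 (SD, n = 3), a difference of -0.79 (1.73-fold lower, SE 0.30, 95% interval -1.43 to -0.15). With the replicate block the interval narrowed to -1.02 to -0.56. The 3 differences by replicate number, -0.81, -1.01 and -0.57, were all beyond the 1.3-fold bound of 0.38. Without control replicate 2 the difference of the means was -0.38.

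Gstm6 was the most variable member. Its control replicates 1, 2 and 3 were at 8.50, 9.23 and 7.17, and its knockdown replicates at 7.50, 8.64 and 7.20. The control values spanned 2.06 log2 units, a 4.17-fold range within one group, whereas the group means of 8.30 ± 1.04 and 7.78 ± 0.76 (SD, n = 3) differed by -0.52 (SE 0.38, 95% interval -1.33 to 0.29). The difference was largest for number 1, -0.59 for number 2 and 0.03 for number 3. Replicate 3 was thus the lowest of each group and was almost level between the groups. The block interval was -0.91 to -0.13. Single arrays moved the difference widely, to -0.06 without control replicate 2, -0.23 without knockdown replicate 3, -1.09 without control replicate 3 and -0.95 without knockdown replicate 2.

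Gstm2, whose human counterpart is best known in muscle, had the smallest SD within groups of the 5 members called with the block. It was at 10.96, 11.16 and 10.60 in control replicates 1, 2 and 3 and at 10.32, 10.83 and 10.05 in knockdown. The groups overlapped through one array, knockdown replicate 2, which was above control replicate 3. The means were 10.91 ± 0.28 and 10.40 ± 0.40 (SD, n = 3) and differed by -0.51 (1.42-fold lower, SE 0.19, 95% interval -0.91 to -0.12, with the block -0.72 to -0.30). Without knockdown replicate 3 the difference was -0.33. Gstm2 and Gstm7 were the members whose interval lay below 0 with and without the block.

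Gstm1, the classical inducible Mu-class enzyme of mouse liver, showed a close repeat of one pattern. Control replicates 1, 2 and 3 were at 10.48, 11.09 and 9.37 and knockdown replicates at 9.89, 10.58 and 9.07. The order of the replicate numbers was 2, 1, 3 in both groups, and the whole set lay lower in knockdown by 0.30 to 0.58. The difference of the means, from 10.31 ± 0.87 to 9.85 ± 0.76 (SD, n = 3), was -0.47 with an SE of 0.35 (95% interval -1.20 to 0.26). The SE with the replicate block was 0.09 (interval -0.67 to -0.26). The control range of 1.72 was larger than the difference between the groups. That difference was -0.08 without control replicate 2 or knockdown replicate 3, and -0.94 and -0.83 without control replicate 3 and knockdown replicate 2.

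The 2 probe sets of Gstm3 disagreed. Probe set 10362511 was at 8.97, 9.49 and 8.16 in control replicates 1, 2 and 3 and at 8.43, 9.02 and 7.84 in knockdown, with a difference of -0.44 (SE 0.28, 95% interval -1.03 to 0.15, with the block -0.64 to -0.25). The difference of 10362511 was -0.14 without control replicate 2, -0.15 without knockdown replicate 3, -0.80 without control replicate 3 and -0.74 without knockdown replicate 2, so single arrays set its size. Probe set 10501218 was at 7.57, 7.71 and 7.66 in control and 7.66, 7.79 and 7.67 in knockdown, with a difference of 0.06 (SE 0.08, 95% interval -0.13 to 0.25). The first followed the replicate pattern of the other members and the second hardly varied, with a within-group SD of 0.63 against 0.07. Over the 6 arrays 10362511 correlated with Gstm1 at 0.996, the highest of the 21 pairs of kept probe sets. By the numbering of the probe sets, the 10 annotated probe sets nearest to 10362511 were all on chromosome 10, between Frk and Hs3st5, whereas 9 of the 10 nearest to 10501218 were on chromosome 3, between 4933431E20Rik and Ampd2. The numbering places the second within the Gstm cluster. Where the probes of either lie in the genome, and which paralogs they match, was not analysed here, so the level of Gstm3 itself is uncertain.

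Gstm5, the member of the family typical of brain and testis, was nearly constant within groups. It was at 11.18, 11.21 and 10.95 in control replicates 1, 2 and 3 and at 10.74, 10.97 and 10.80 in knockdown. Only knockdown replicate 2 reached the range of the control arrays. Means of 11.11 ± 0.14 and 10.84 ± 0.12 (SD, n = 3) differed by -0.28 (1.21-fold lower, SE 0.14, 95% interval -0.57 to 0.01, with the block -0.48 to -0.08), which is under the 1.3-fold bound in either fit. It was the one kept member whose difference exceeded the range of its control values, 0.25.

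Gstm4 had the smallest mean difference among the 7 kept probe sets. It was at 11.16, 11.40 and 10.67 in control replicates 1, 2 and 3 and at 10.85, 11.09 and 10.85 in knockdown. The first 2 numbers were lower in knockdown by 0.32 and 0.31, and the third was higher by 0.18. The difference of the means was -0.15 (SE 0.17, 95% interval -0.51 to 0.21, with the block -0.41 to 0.11), and it was 0.01 without control replicate 2, -0.36 without control replicate 3 and -0.23 without knockdown replicate 2. Gstm4 was not called in either fit.

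**Figure D2:**
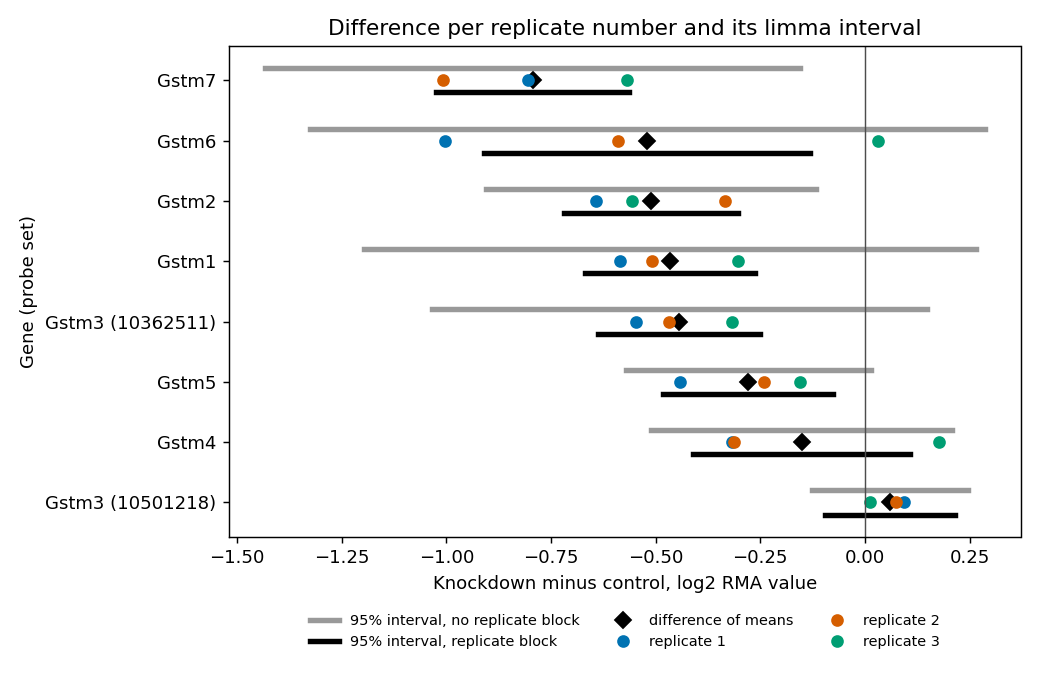
Knockdown minus control in log2 RMA value (horizontal axis) for each Mu-class probe set (vertical axis), as the difference of means (diamonds), the difference for each replicate number (coloured circles) and the 95% limma interval without (grey) and with (black) the replicate block. Black bars of 6 members lie wholly below 0, grey bars only for Gstm7 (-1.43 to -0.15) and Gstm2 (-0.91 to -0.12).

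Differences by replicate number were lower in knockdown for all 3 numbers in 5 of the 7 kept probe sets, a pattern found in 25.6% of the 11705. Gstm4 and Gstm6 were lower for 2 of 3 numbers. The median difference over the 7 was -0.47, beside 0.02 over all probe sets tested. The family was chosen by these differences, so its counts and median describe it and do not test whether it stands out. The block leaves 2 residual degrees of freedom where the plain fit has 4, and its calls over the whole table were lost without replicate 2 or 3. It called 4 Mu-class probe sets, all lower, without replicate 1, 0 without replicate 2 and 0 without replicate 3. Without replicate 1, 7.91% of all tested were called in either direction, 493 of them lower. Over the whole table the last settings called 0 and 1 probe sets, so the loss was not particular to the family. Without the block, 3 were called lower (Gstm7, Gstm6 and Gstm2) when control replicate 3 was left out. Of all tested, 2.83% were then called in either direction, 222 of them lower. Without knockdown replicate 2, 2 were called lower (Gstm7 and Gstm2), where 4.34% of all tested were called in either direction, 334 of them lower.

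The spread between replicates was large in most members. The SD within groups was 0.82 for Gstm1, 0.91 for Gstm6, 0.70 for Gstm7, 0.63 for Gstm3 10362511, 0.34 for Gstm2 and 0.28 for Gstm4, where the median over annotated probe sets was 0.12 and the 95th percentile 0.28. These 6 were in the top 5% of annotated probe sets by this SD. Gstm5 (0.13) was near the middle, with a smaller SD in 53.3% of probe sets. Among the 7 kept, replicate 2 was highest in both groups in 7 of 7 (19.9% of the 11705), and the full order 2, 1, 3 was found in both groups in 6. In each of the 7, control replicate 3 was below knockdown replicate 2. Averaged over the 7, the deviation from the group mean was 0.09, 0.55 and -0.63 in control replicates 1, 2 and 3 and -0.08, 0.50 and -0.42 in knockdown. The trait was not limited to the Mu class. Of the 62 other glutathione probe sets described below, 7 were in the top 5% by SD, and 5 of these (Nqo1, Srxn1, Glrx, Gsta4 and Ephx1) also had the order 2, 1, 3 in both groups, an order shared by 12 of the 62 and by 12% of the 11705. The labels do not say which cultures, days or plates the replicate numbers stand for.

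The members followed each other closely. Pearson correlations among the 7 kept probe sets over the 6 arrays were 0.74 to 1.00 (21 pairs, median 0.91), and those of the deviations from the group means 0.81 to 1.00 (median 0.94). The Gstm3 probe set 10501218 correlated with the 7 at -0.17 to 0.26. These are descriptions of 6 arrays that all probe sets share, and probes of paralogs may bind the same RNAs. Of 11698 other kept probe sets, 7.30% also correlated above 0.9 with the mean of the Mu-class profile.

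The 5 genes with the most similar profile were Insl6 (r = 0.996), Ech1 (0.995), Tulp2 (0.995), Abhd4 (0.994) and Coq8b (0.994). Insl6, an insulin-like peptide gene best known in testis, was at 8.84, 9.35 and 7.74 in control replicates 1, 2 and 3 and at 7.81, 8.73 and 7.23 in knockdown. Its order of replicates was that of Gstm7, and its groups overlapped. It differed by -0.72 (SE 0.34, limma adjusted p = 0.38) and was called lower with the block (adjusted p = 0.011). Ech1, an enzyme of fatty acid oxidation, and Coq8b, which acts in coenzyme Q synthesis, differed by -0.28 and -0.20. Neither of these, nor Tulp2 (-0.16) or the lipase Abhd4 (-0.34), was called in either fit. With the block Abhd4 (limma adjusted p = 0.034) and Ech1 (0.058) passed the p threshold but were under the 1.3-fold bound. Similarity over 6 arrays was the only criterion for naming these genes.

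**Figure D3:**
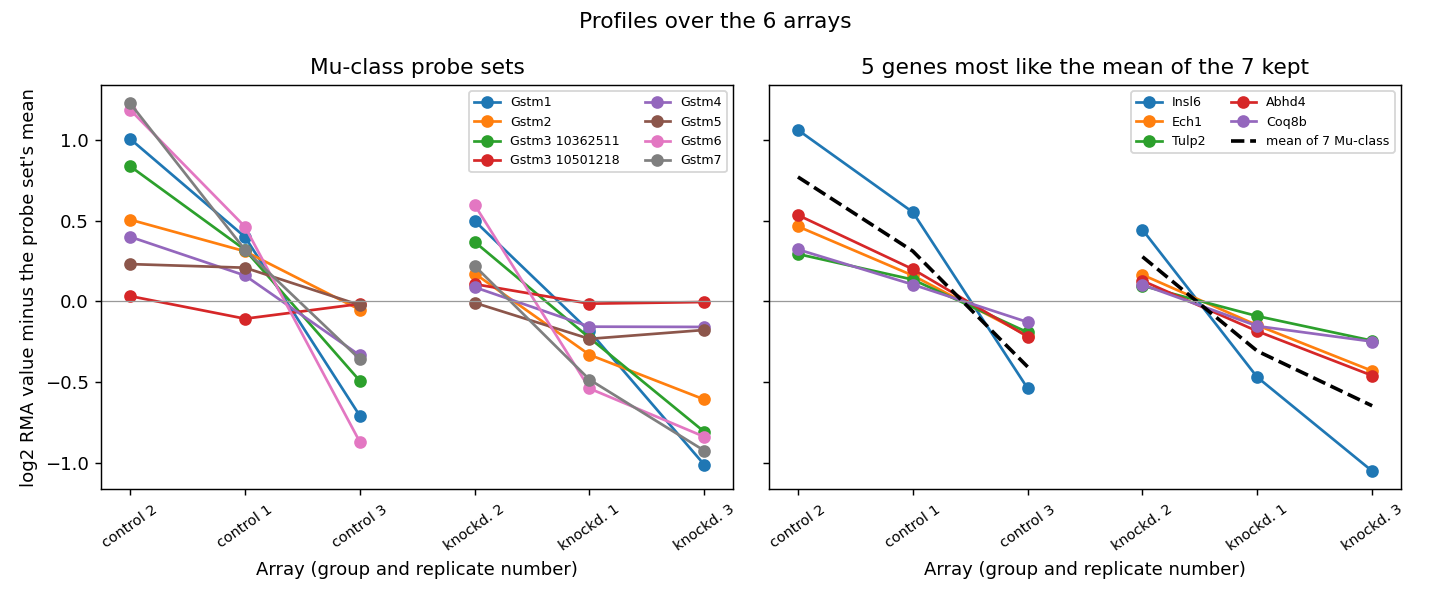
Log2 RMA value minus the mean of each probe set over the 6 arrays (vertical axis), for the 8 Mu-class probe sets (left) and for the 5 most similar genes with the mean of the 7 kept Mu-class probe sets as a dashed line (right), with arrays placed in the order replicate 2, 1, 3 within each group only to ease comparison. The mean profile is at 0.77, 0.31 and -0.41 in control replicates 2, 1 and 3 and descends in the same order in knockdown.

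Markers of other cells were compared with this profile. Of the 8 fibroblast markers, all measured and tested, 0 were called without the block (0 had an unadjusted p under 0.05) and 1 with it. This was Pdgfrb, a growth factor receptor of mesenchymal cells, at 9.66, 10.45 and 8.64 in control replicates 1, 2 and 3 and 9.02, 9.63 and 8.27 in knockdown, the same order of replicates as the Mu-class genes. Pdgfra shared this order, at 7.73, 7.80 and 7.52 in control and 7.70, 7.71 and 7.31 in knockdown. The collagen gene Col1a1 did not, at 8.46, 8.57 and 8.71 in control and 8.81, 8.47 and 8.61 in knockdown. Col3a1, Col1a2, Dcn, Lum and Thy1 also lacked this order, and like Col1a1 each was highest in control replicate 3. Most of the list thus did not share the order. Of the 8 fibroblast markers, 3 were lower and 1 was higher in knockdown for all 3 replicate numbers. Of the lists for glia, macrophages and hepatocytes, 5, 1 and 1 probe sets were tested and 0 were called in either fit (0 at an unadjusted p under 0.05), where 1.14% and 7.65% of all tested were called without and with the block. The part of other cells or of culture conditions in the Mu-class profile was not tested.

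The gene order of the reference table places the 7 members in one run on chromosome 3: Gstm5, Gstm7, Gstm6, Gstm3, Gstm2, Gstm1 and Gstm4. The nearest measured genes are the long non-coding RNA gene 4933431E20Rik on the Gstm5 side and Ampd2, an AMP deaminase gene, on the Gstm4 side. Of the 10 measured genes on each side (20 genes, 21 probe sets), 8 probe sets entered the test. Without the block limma called 0 of them (1.14% of all tested), with 0 at an unadjusted p under 0.05 (12.7% of all tested). With the block 1 of the 8 was called (7.65% of all tested), 4933431E20Rik. It was at 8.35, 8.99 and 7.80 in control replicates 1, 2 and 3 and at 7.78, 8.48 and 7.64 in knockdown. Like the Mu-class members it was highest in replicate 2 and lowest in replicate 3 of each group. Its difference was -0.42 (SE 0.24, limma adjusted p = 0.50, with the block 0.036).

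Ampd2, by contrast, was at 11.03, 11.12 and 10.88 in control and 11.05, 11.16 and 11.07 in knockdown, a difference of 0.08 (SE 0.09). It was removed by the variance filter. Differences of the 21 neighbouring probe sets ranged from -0.42 to 0.18, and their SDs within groups from 0.04 to 0.53. For 13 of the 21 the SD was under 0.13, the lowest of the 7 kept Mu-class probe sets. At the edges of the cluster the SD was 0.09 for Ampd2 on one side and 0.53 for 4933431E20Rik, then 0.10 for Eps8l3, on the other. 4933431E20Rik overlaps the start of Gstm5 in the gene table, so which of them its probes measure is uncertain.

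**Figure D4:**
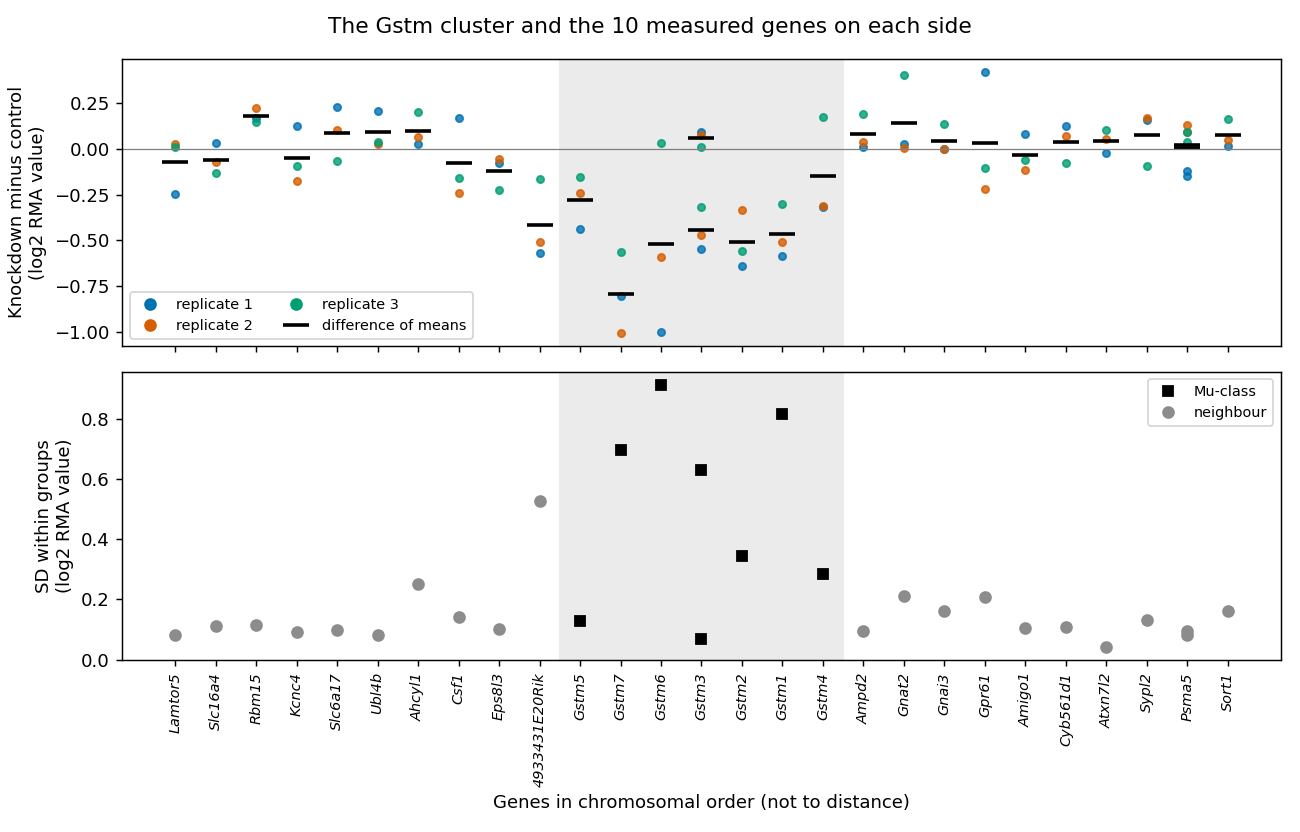
The 7 Gstm genes (shaded) and the 10 measured genes on each side in chromosomal order (horizontal axis, not to distance), with knockdown minus control in log2 RMA value above (coloured circles for replicate numbers, bars for the difference of means) and the SD within groups below. Differences below -0.4 are found among the Gstm genes and 4933431E20Rik, and the neighbours past these lie between -0.12 and 0.18. Both Gstm3 probe sets are drawn at the gene, the lower difference and the larger SD belonging to 10362511.

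Other genes of glutathione metabolism were taken from 5 lists, with 61 genes and 62 probe sets measured. Of these, 31 had a lower and 31 a higher mean in knockdown. limma tested 36 and called 0 without the block, where 1.14% of all tested were called, and with the block it called 1 of the 36 (7.65% of all). At an unadjusted p under 0.05 there were 5 of 36 without the block (12.7% of all tested) and 14 of 36 with it (30.7% of all tested). The medians of the lists, taken over all their probe sets, lay between -0.11 and 0.05. The median was -0.47 for the kept Mu-class probe sets and 0.02 for all tested. The list medians include probe sets removed by the variance filter, and the Mu class was chosen by its differences. These medians are therefore not a like comparison.

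Glutathione transferases of the other classes comprised 15 measured genes, 10 with a lower and 5 with a higher mean and a median difference of -0.07. Gstk1, the Kappa-class enzyme of mitochondria and peroxisomes, was at 9.62, 9.62 and 9.46 in control replicates 1, 2 and 3 and at 9.02, 9.01 and 9.13 in knockdown. Its groups were apart, unlike those of any Mu-class gene, and its spread was small. The difference of -0.52 (SE 0.13) had a limma adjusted p of 0.101, just past the threshold, and was called lower with the block (adjusted p = 0.014). Gsto2, an Omega-class enzyme, differed by 0.20 (SE 0.13, limma adjusted p = 0.56, with the block 0.13). Gstt1, a Theta-class enzyme, and Gstp1, the Pi-class enzyme that is often abundant in tumour cells, were named after their values were seen, as the other members of this list that are best known. Gstt1 differed by -0.29 (limma adjusted p = 0.44, with the block 0.075), under the 1.3-fold bound. Gstp1, removed by the variance filter, differed by -0.22.

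The enzymes of glutathione synthesis and recycling had 8 lower and 10 higher means among 18 genes and 0 called among 11 tested. Gclm, the modifier subunit of the rate-limiting ligase, differed by 0.22 (SE 0.14, limma adjusted p = 0.54, with the block 0.104). The gamma-glutamyl transferase relative Ggt7 differed by -0.30 (SE 0.14, limma adjusted p = 0.40, with the block 0.047). Neither was called with the block, and both were under the 1.3-fold bound. Among the peroxidases, which use glutathione to reduce peroxides, 4 probe sets were lower and 5 higher, with 0 of 5 called. Both probe sets of Gpx4, the peroxidase of membrane lipids, were removed by the variance filter, with differences of 0.13 and 0.11.

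The export pumps for glutathione conjugates had 4 lower and 2 higher means and 0 of 3 called. Abcc3 differed by -0.28 (SE 0.19, limma adjusted p = 0.58, with the block 0.069), under the 1.3-fold bound. Abcc2, not tested, differed by 0.20. NRF2, its partners and its targets had 5 lower and 9 higher means, with 0 of 9 called and a median of 0.03. Txnrd1, the thioredoxin reductase and a target of NRF2, differed by 0.30 (SE 0.14, limma adjusted p = 0.37, with the block 0.047). Maff, a small partner of NRF2, differed by -0.34 (SE 0.15, limma adjusted p = 0.35, with the block 0.057). Neither was called with the block, as both were under the 1.3-fold bound. For all 3 replicate numbers Txnrd1 was higher in knockdown and Maff lower. A further 4 genes were named after their values were seen. The NRF2 gene Nfe2l2 itself differed by 0.18 (limma adjusted p = 0.65) and its target Nqo1, a quinone reductase, by 0.16 (limma adjusted p = 0.89). Ephx1, an epoxide hydrolase, had the largest difference of the list, -0.38 (limma adjusted p = 0.38, with the block 0.024), and Srxn1, sulfiredoxin, differed by -0.35 (limma adjusted p = 0.56, with the block 0.036). Both were lower for all 3 replicate numbers but under the 1.3-fold bound, Ephx1 only just. Whether the Mu-class family differed from these lists was not tested.

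**Figure D5:**
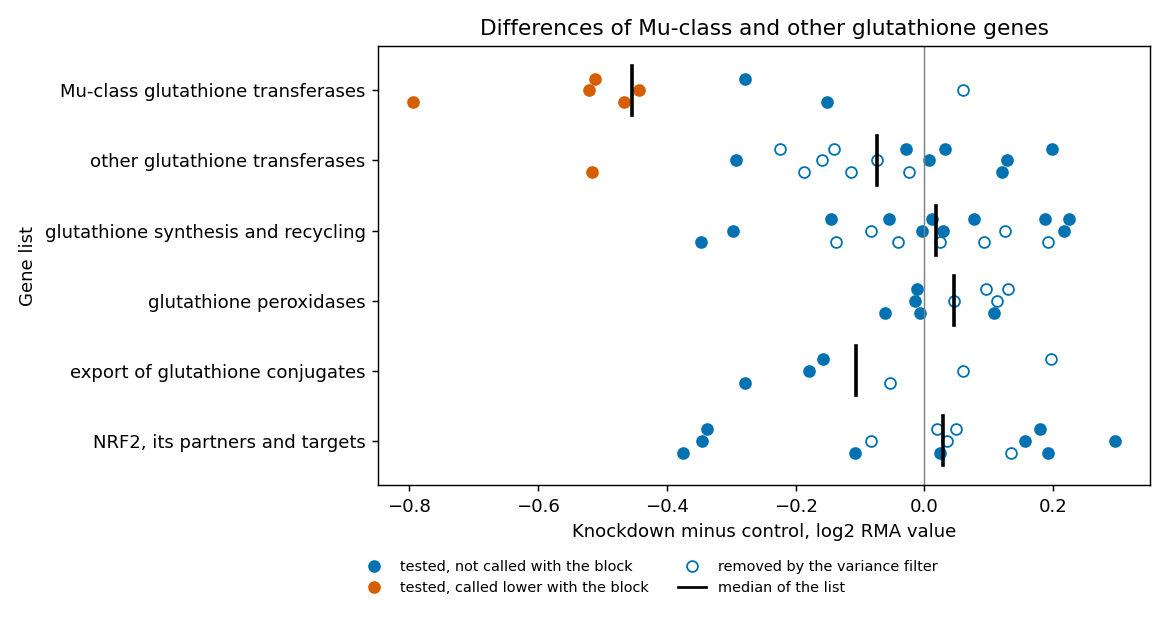
Knockdown minus control in log2 RMA value (horizontal axis) for each probe set of the Mu class and of 5 other glutathione lists (vertical axis), with filled circles for tested probe sets, orange for those called lower with the replicate block, open circles for those removed by the variance filter and black bars for list medians over all probe sets shown. A total of 6 orange circles are seen, 5 of the Mu class and Gstk1, and the medians of the other lists lie between -0.11 and 0.05.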

How the data were processed

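RNA of 6 samples, 3 per group, was measured on Affymetrix Mouse Gene 1.0 ST arrays, using 200 ng RNA each. The authors background corrected the arrays with RMA, quantile normalised them and summarised them per gene with the oligo package, and deposited log2 values (2.76 to 14.8). Tool versions are not given in the sources used. Groups and replicate numbers came from the sample titles, and 0 sample columns were left unmapped. A total of 12146 rows without an annotated symbol were left out, 1621 rows with several symbols named no gene, and all 8 Mu-class symbols matched the reference table by Entrez number.

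Of 23410 annotated probe sets, the more variable 11705 (interquartile range across arrays over its median) were tested with limma 3.58.1 in R 4.3.3 (lmFit and eBayes, two-sided, no covariate). The variance filter, limma and the 1.3-fold bound follow the study. Calls required an adjusted p (Benjamini-Hochberg, over all tested) under 0.1 and a fold of at least 1.3. Probe sets removed by the filter took values from the same fit without it. The procedure was tested on simulated data in which arrays were drawn independently. No effect shared by a replicate number was simulated, so calls with the block were not checked against one. Intervals are 95% limma intervals, and the number of arrays limits their precision. The samples are called biological replicates, without their cultures or days, so p-values reflect only how these samples vary, which may be technical.

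Deviations from the group means correlated between arrays numbered 1, 2 and 3 at 0.14, 0.65 and 0.65 over annotated probe sets. All were above the low bound of 0.1 that was set. For number 1 the mean Mu-class deviations had opposite signs, 0.09 in control and -0.08 in knockdown. With 3 arrays per group these correlations cannot show what the numbers share. A blocked fit on the number is given beside the plain fit wherever it changed a call, and for some other named genes. Named were all members, the called members of each glutathione list or else the 2 with the smallest p, the nearest neighbour on each side of the cluster and any called, and the 5 genes most correlated with the mean member profile. Members and lists were chosen with earlier results of these data known. Alternatives were other filters, the block, median centring, eBayes with trend and robust, and leaving out each replicate.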

Additional observations from a re-analysis of the deposited data

How the results depend on the processing

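The limits of these values are the 3 arrays per group, the large replicate spread of the family, and probes of paralogs that were not separated. Filters, the block and eBayes settings cannot move a difference of means. Over the 69 differences recomputed with arrays left out or centred, 68 kept their sign, the exception being Gstm4 without control replicate 2 (0.01), but sizes moved by over 1.5 times in 6 of the 7 members, all but Gstm5. With the replicate block, the number of Mu-class probe sets called went from 0 to 5. With the replicate block and no variance filter it was 4, and with the block without replicates 1, 2 and 3 it was 4, 0 and 0, alternatives chosen after seeing the data. Leaving out 1 array without the block gave 0 to 3, the highest without control replicate 3. Every other setting gave 0. Over the whole table, 133 probe sets were called, against 41 with no variance filter, 0 with rows lacking a symbol in the filter, 52 with a filter on dim probe sets, 896 with the replicate block, 427 with trend and robust, 888 with the block and no filter, and 926, 0 and 1 with the block without replicates 1, 2 and 3. Leaving out 1 array gave 4 (without knockdown replicate 1) to 508 (without knockdown replicate 2). Centring on the median gave 57 higher and 71 lower in place of 43 and 90. The other glutathione genes called went from 0 to 1 (Gstk1) with the dim filter, the block, trend and robust, the block without a variance filter, and the block without replicate 1, and were 0 to 1 when 1 array was left out. The genes beside the cluster called went from 0 to 1 (4933431E20Rik) with the block, with or without the variance filter, and 0 when any 1 array was left out. The cause of these changes was not tested.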
